A study of Homo sapiens with 18 samples.

Results

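The mRNAs of 9 enzymes that lead from acetyl-CoA through mevalonate to squalene epoxide were followed in T47D cells, an estrogen receptor-positive luminal breast cancer line. The members were taken by name, in pathway order, as ACAT2, HMGCS1, MVK, PMVK, MVD, IDI1, FDPS, FDFT1 and SQLE, and all 9 were found among the 58884 gene identifiers counted. They are not every enzyme of the route. The rule names enzymes and uses no measured value, although it was written with earlier results of these data known. RNA was sequenced from cells labelled WT (line T47D AAV) and cells labelled PARP1 KO (line T47D JL), each treated for 48 hours with DMSO, niraparib or olaparib, the drugs at 10 μmol/L, with 3 libraries for each of the 6 groups. Each genotype is a single line, and the labels do not explain the line names, so the genotype cannot be told apart from other differences between these lines. The methods describe 3 dishes for each condition but do not say that each library came from its own dish, so P values describe the spread between libraries, part of which may be technical.

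The mevalonate pathway builds isoprenoid units from acetyl-CoA. Its product farnesyl diphosphate is the branch point between sterols and other isoprenoids, such as the lipids attached to prenylated proteins. Cells adjust the pathway to their sterol supply through SREBP transcription factors, which are released to the nucleus when membrane sterols are low and which act on many of these genes together with NF-Y and Sp1. Niraparib, an indazole carboxamide, and olaparib, a phthalazinone, both inhibit PARP1, an enzyme that adds ADP-ribose chains to proteins at DNA breaks.

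Library totals ran from 28890837 to 52251288 counts, and each member had between 1157 and 21855 counts in every library. The coefficient of variation of a member within a group was 3.85% at the median over 54 gene and group pairs, and 13.3% at the highest, for IDI1 in PARP1 KO with olaparib. PARP1 itself was at 291 to 373 CPM (reads counted on the gene, scaled to library size) in the 9 WT libraries and at 22.9 to 27.6 CPM in the 9 PARP1 KO libraries, in the direction of the labels. For the treatments there is no such check: 3 genes were called with niraparib in PARP1 KO cells, 177 with olaparib in PARP1 KO cells and 3102 with niraparib in WT cells (calls as defined below). Whether the PARP1 KO niraparib libraries carry their labelled treatment was not tested, and every value that uses them, the interaction with niraparib included, rests on that label. The luminal markers KRT8, KRT18, KRT19, EPCAM, CDH1, GATA3 and FOXA1 were detected in every group, from 187 CPM (mean of EPCAM in WT with niraparib) upward. Of 9 markers of other cell types, VIM, COL1A2, PTPRC, CD3E, PECAM1, KRT5 and KRT14 had means below 1 CPM in every group, while COL1A1 was at 97.4 to 127 CPM and TP63 at 1.40 to 2.41 CPM.

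Levels of different enzymes were compared per kilobase of exon (RPKM), which divides each count by the summed exon length of the gene. In WT cells with DMSO, PMVK (phosphomevalonate kinase) stood highest at 101 ± 2.72 RPKM (SD, n = 3) and FDFT1 (squalene synthase) next at 79.6 ± 2.40 RPKM. IDI1 (isopentenyl-diphosphate isomerase) followed at 48.7 ± 1.62 RPKM, FDPS (farnesyl diphosphate synthase) at 43.2 ± 1.19 RPKM, SQLE (squalene epoxidase) at 29.1 ± 0.949 RPKM and HMGCS1 (cytosolic HMG-CoA synthase) at 27.4 ± 2.17 RPKM. MVD (mevalonate diphosphate decarboxylase) was at 22.6 ± 1.32 RPKM, ACAT2 (cytosolic acetoacetyl-CoA thiolase) at 16.8 ± 0.659 RPKM and MVK (mevalonate kinase) lowest at 7.53 ± 0.322 RPKM. In this order only SQLE and HMGCS1 overlapped as neighbours, and the highest mean was 13.4 times the lowest. The order was the same in PARP1 KO cells with DMSO. In WT cells with niraparib, FDPS stood above IDI1, and ACAT2 above SQLE, HMGCS1 and MVD, with the highest mean 20.1 times the lowest. The exon lengths cover all annotated transcripts of a gene, and PMVK has the shortest, 1002 bases.

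**Figure D1:**
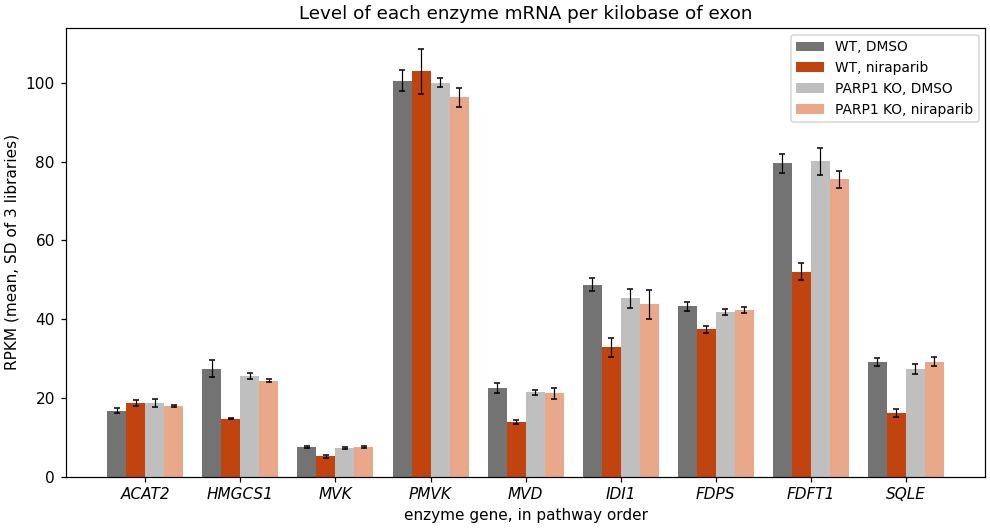
Mean level of each enzyme mRNA in RPKM (vertical axis) by gene in pathway order, with bars for WT and PARP1 KO cells given DMSO or niraparib and error bars for the SD of 3 libraries. PMVK and FDFT1 stand highest with DMSO, and in WT cells with niraparib FDFT1 is at 52.0 RPKM while PMVK is at 103 RPKM.

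The first comparison asked how niraparib changed these mRNAs in WT cells. A gene is called here when it changed by more than 1.5-fold with adjusted P under 0.05 (edgeR quasi-likelihood test, Benjamini-Hochberg over all 22446 genes tested). HMGCS1, SQLE, MVD and FDFT1 were called lower, which is 4 of the 9 members, and 0 were called higher, while 5.72% of all genes were called lower and 13.8% were called in either direction. By adjusted P alone, 7 members were lower and 1, ACAT2, was higher, beside 18.1% of all genes lower and 19.9% higher. The median log2 fold change of the members was -0.57, and that of all genes tested was -0.02. The 3 niraparib libraries lay below the 3 DMSO libraries for 7 members, and 22.5% of all genes showed such a separation downward. For those 7 members the WT niraparib libraries also lay below all 15 other libraries of the series, as they did for 9.8% of all 22446 genes.

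HMGCS1 joins acetoacetyl-CoA and acetyl-CoA into HMG-CoA, and its gene lies on the minus strand of chromosome 5 from 43287470 to 43313512 of GRCh38. In WT cells it was at 198, 173 and 173 CPM with DMSO, at 98.1, 97.0 and 97.8 CPM with niraparib, and at 183, 169 and 177 CPM with olaparib. The niraparib libraries lay within a narrow band far below the others. With niraparib it changed by -0.89 on the log2 scale (standard error, SE, 0.05; adjusted P = 1.5e-11, edgeR), to 53.9% of the DMSO level.

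SQLE, on the plus strand of chromosome 8 from 124998497 to 125022283, makes squalene epoxide, the last product of the route followed here. It was at 128, 127 and 120.4 CPM with DMSO, at 72.5, 64.0 and 70.9 CPM with niraparib, and at 125, 118 and 118 CPM with olaparib. Here too the niraparib libraries stood apart, at 55.2% of the DMSO level, which is -0.86 on the log2 scale (SE 0.05, adjusted P = 3.3e-11, edgeR). FDFT1, on the plus strand of chromosome 8 from 11795573 to 11839304, joins farnesyl diphosphate units into squalene, the first committed step to sterols. It was at 399.8, 424 and 418 CPM with DMSO, at 278, 258 and 275 CPM with niraparib, and at 383, 376 and 371 CPM with olaparib. Its libraries fell in 3 separate bands, with DMSO highest and niraparib lowest. The change with niraparib was -0.61 (log2, SE 0.05, adjusted P = 8.4e-10, edgeR), close to the limit of 1.5-fold, and without WT niraparib replicate 2 it was -0.58 and the call was lost.

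The kinases and the decarboxylase that turn mevalonate into isopentenyl diphosphate did not move alike. MVD, on the minus strand of chromosome 16 from 88651935 to 88663161, was at 114, 102 and 104 CPM with DMSO and at 67.4, 62.6 and 67.1 CPM with niraparib. The change, -0.70 on the log2 scale (SE 0.05, adjusted P = 9.5e-10, edgeR), was past 1.5-fold, and no library of one treatment came near the other. MVK, on the plus strand of chromosome 12 from 109573255 to 109598125, was at 49.5, 46.5 and 50.5 CPM with DMSO and at 35.3, 31.3 and 33.2 CPM with niraparib. Its change of -0.56 (log2, SE 0.06, adjusted P = 1.4e-07, edgeR) was under 1.5-fold, and passed 1.5-fold without WT niraparib replicate 1 (-0.61) or without WT DMSO replicate 2 (-0.59). PMVK, the kinase between these 2 enzymes, lies on the minus strand of chromosome 1 from 154924740 to 154936719. It was at 98.4, 104 and 100.2 CPM with DMSO and at 105, 96.8 and 108 CPM with niraparib, with the libraries of both treatments mixed. The log2 fold change of PMVK was 0.03 (95% interval -0.07 to 0.13, adjusted P = 0.68, edgeR), an interval that holds no change as large as that of MVD or MVK.

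IDI1, on the minus strand of chromosome 10 from 1039152 to 1049170, interconverts the isoprenoid building blocks. It was at 211, 219 and 205 CPM with DMSO and at 146, 131 and 151 CPM with niraparib. It changed by -0.57 (log2, SE 0.05, adjusted P = 1.7e-08, edgeR), just under 1.5-fold, and it was past 1.5-fold without WT niraparib replicate 1 (-0.59), WT niraparib replicate 3 (-0.61) or WT DMSO replicate 3 (-0.60). FDPS, on the plus strand of chromosome 1 from 155308748 to 155320666, builds farnesyl diphosphate, which both sterol and prenylation branches use. It was at 159.7, 157 and 165 CPM with DMSO and at 142, 136 and 139.8 CPM with niraparib, a small but separate step down of -0.21 on the log2 scale (SE 0.04, adjusted P = 6.7e-04, edgeR). The step down of FDPS was smaller than those of the enzymes just before and after it, IDI1 and FDFT1, and the 95% interval of FDPS, -0.30 to -0.11, did not reach theirs.

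ACAT2 catalyses the first condensation, of acetyl-CoA with itself, and lies on the plus strand of chromosome 6 from 159760328 to 159779055. It was at 68.8, 74.2 and 73.1 CPM with DMSO and at 83.7, 76.8 and 79.8 CPM with niraparib. These libraries did not overlap, and niraparib was the higher. The change was 0.15 (log2, SE 0.05, adjusted P = 0.035, edgeR), and over the alternatives the adjusted P value ran from 0.014 to 0.17. It was above 0.05 without WT niraparib replicate 1 (0.17) or 3 (0.064) and without WT DMSO replicate 1 (0.11) or 3 (0.066). With the replicate number as a block it was also above 0.05 (0.054).

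**Figure D2:**
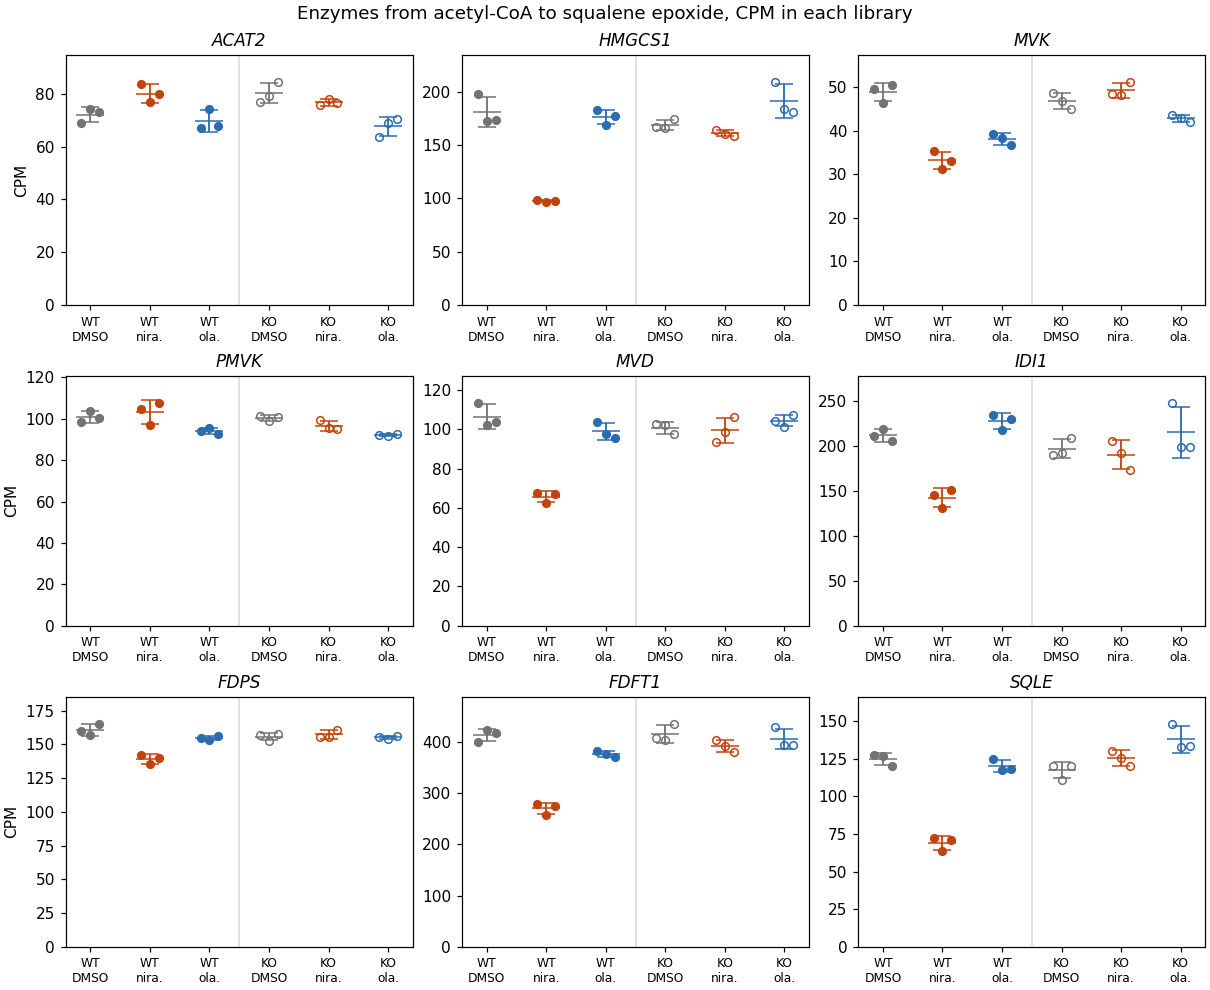
CPM of each of the 9 enzymes (vertical axes, from 0) in the 18 libraries by genotype and treatment. Points are libraries, filled for WT and open for PARP1 KO, and bars give the mean and SD of 3 libraries. The 3 WT niraparib libraries lie below the other 15 for 7 enzymes, all but ACAT2 and PMVK, and for 9.8% of all genes tested.

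Upstream sequences of the members are shown because 7 of the 9 members lay lower together with niraparib, and PMVK and ACAT2 did not. RefSeq promoter entries of GRCh38.p14, from 250 bases before to 50 bases after a start site, were used for 6 members with 9 start sites: HMGCS1, MVK, PMVK, MVD, IDI1 and FDPS. No entry of ACAT2, FDFT1 or SQLE was examined, although FDFT1 and SQLE were called lower with niraparib. The counts of boxes below therefore leave these members out. The NF-Y box, CCAAT on either strand, was in 6 of these 9 entries, beside 34.6% of all 35116 promoter entries. Of the 3 entries without it, 1 is that of PMVK and the others are start site 1 of HMGCS1 and start site 3 of IDI1. The GC box GGGCGG, the core of Sp1 sites, was in all 9 entries and in 45% of all entries. The core of the sterol regulatory element, CACNCCAC, was found in 1 of the 9, at 115 bases before start site 1 of IDI1, and in 5.87% of all entries, and the E-box CACGTG was in 0 of the 9 and in 7.26% of all entries. Matched letters describe these windows only and show no binding.

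The stretches printed run 5′ to 3′ on the strand of the gene, and NF-Y boxes are in capitals (CCAAT, or ATTGG for the opposite strand). Each is the longest part of the 250 bases before the start site that lies outside annotated exons.
HMGCS1, start site 2, chr5:43313513-43313662, minus strand: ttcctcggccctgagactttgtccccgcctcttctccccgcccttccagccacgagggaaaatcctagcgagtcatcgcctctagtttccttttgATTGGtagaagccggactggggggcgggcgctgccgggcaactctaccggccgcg
MVK, chr12:109573581-109573792, plus strand: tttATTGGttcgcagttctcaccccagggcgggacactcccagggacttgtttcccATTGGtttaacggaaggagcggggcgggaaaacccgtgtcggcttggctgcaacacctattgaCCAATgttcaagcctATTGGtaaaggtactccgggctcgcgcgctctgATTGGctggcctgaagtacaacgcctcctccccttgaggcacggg
MVD, chr16:88663162-88663297, minus strand: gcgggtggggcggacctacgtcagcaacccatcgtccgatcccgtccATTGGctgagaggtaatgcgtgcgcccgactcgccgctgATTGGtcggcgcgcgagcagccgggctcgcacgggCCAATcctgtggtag
PMVK, chr1:154936720-154936969, minus strand: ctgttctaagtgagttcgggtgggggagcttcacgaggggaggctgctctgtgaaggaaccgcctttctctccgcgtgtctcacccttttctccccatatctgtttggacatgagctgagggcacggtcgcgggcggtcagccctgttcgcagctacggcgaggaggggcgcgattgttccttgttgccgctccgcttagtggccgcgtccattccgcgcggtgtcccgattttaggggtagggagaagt
MVK held 5 NF-Y boxes between 210 and 46 bases before its start site and MVD held 3, while all 250 bases of PMVK are printed and hold 0. HMGCS1 had 2 at its start site 2, at 155 and at 100 bases before it, of which the first lies in the stretch shown, and 0 at its start site 1. FDPS, not printed, held 3, and its change with niraparib, -0.21, was smaller than those of MVK and MVD. IDI1, also not printed, held 3 at its start site 1, 2 at start site 2 and 0 at start site 3. Of the members that did not lie lower, only PMVK is covered, so these windows cannot separate the members by their change.

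Olaparib was compared with DMSO in the same WT cells. In this comparison 0 members were called, beside 4.04% of all 22446 genes (edgeR). At an unadjusted P value below 0.05 stood 2 members, beside 30.2% of all genes. Of these, MVK was at 39.3, 38.5 and 36.7 CPM with olaparib, below every DMSO library and above every niraparib library, which puts it at -0.35 on the log2 scale (SE 0.06, adjusted P = 2.3e-04, edgeR). MVK was the 1 member of 9 with adjusted P under 0.05, as were 19% of all genes. FDFT1 was at -0.13 (95% interval -0.23 to -0.03, adjusted P = 0.054, edgeR), and its adjusted P value ran from 0.014 to 0.19 over the alternatives. The intervals of all 9 members lay between -0.48 and 0.22 on the log2 scale, which excludes a change of 1.5-fold either way in these libraries. For HMGCS1 the value was -0.03 (95% interval -0.14 to 0.07), for SQLE -0.05 (-0.16 to 0.06) and for IDI1 0.11 (0.00 to 0.22).

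The drugs themselves form 1 pair at the same dose and time, which was compared in each genotype with P values adjusted over all genes. In WT cells HMGCS1, SQLE, IDI1 and MVD were called lower with niraparib than with olaparib, 4 of 9 members beside 3.33% of all genes called lower and 8.95% in either direction, and 0 members were called higher. The log2 differences were -0.86 for HMGCS1 (adjusted P = 7.3e-11, edgeR), -0.81 for SQLE, -0.68 for IDI1 and -0.60 for MVD, with an SE of 0.05 each. MVD fell under 1.5-fold without WT olaparib replicate 1 or WT niraparib replicate 2 (-0.56 in each). FDFT1 was lower by less than 1.5-fold (-0.48, adjusted P = 6.1e-08, edgeR). FDPS differed by -0.16 (adjusted P = 0.0090, edgeR). MVK differed by -0.21 (adjusted P = 0.012, edgeR; 0.062 without WT olaparib replicate 1 and 0.056 without WT niraparib replicate 2). ACAT2 was higher with niraparib by 0.20 (adjusted P = 0.0079, edgeR; 0.053 without WT olaparib replicate 1 and 0.055 without WT niraparib replicate 1). For PMVK the difference of 0.13 had a 95% interval of 0.03 to 0.23 and an adjusted P value of 0.053 (edgeR), with 0.0052 to 0.21 over the alternatives, which leaves the side of the threshold unsettled.

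**Figure D3:**
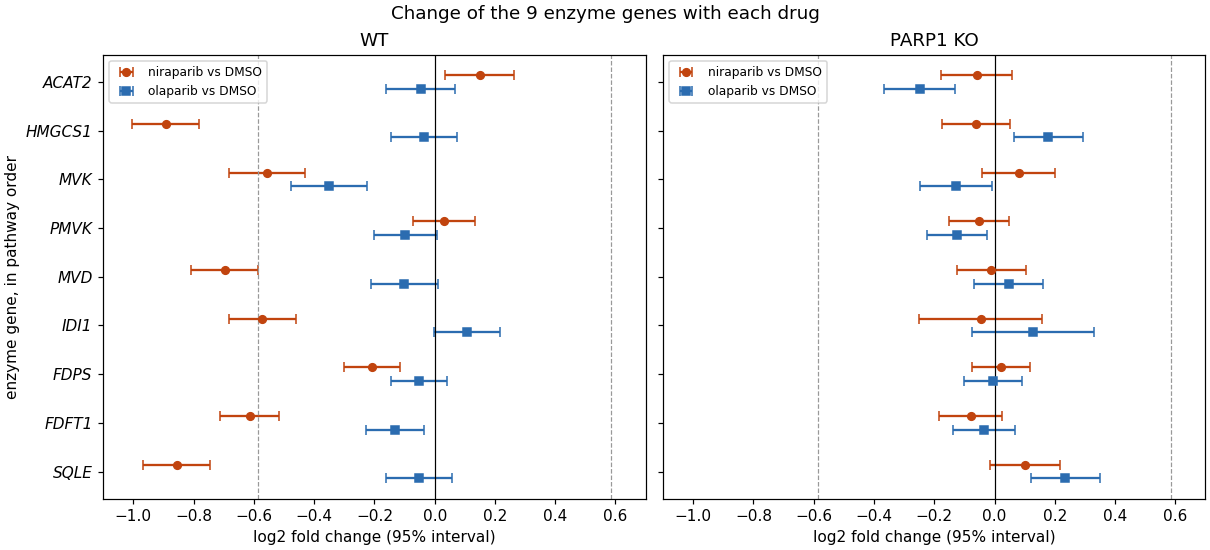
Log2 fold change of each enzyme gene, in pathway order, with niraparib (circles) or olaparib (squares) against DMSO in WT cells (left) and PARP1 KO cells (right). Bars are 95% intervals and dashed lines mark 1.5-fold. In WT cells niraparib values run from -0.89 to 0.15, and in PARP1 KO cells from -0.08 to 0.10.

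In PARP1 KO cells, niraparib was compared with DMSO in the same way. Of the members, 0 were called and 0 had an unadjusted P value below 0.05, beside 9.14% of all genes (edgeR; 0 members were called by DESeq2 as well). In the whole comparison 3 of 22037 genes were called, 0.0136%, so the members' lack of calls was shared by nearly all genes. Their log2 fold changes ran from -0.08 to 0.10, with adjusted P values of 0.61 or more (edgeR), and the 95% intervals of all 9 lay between -0.25 and 0.22. HMGCS1 was at 167, 166 and 174 CPM with DMSO and at 164, 161 and 159 CPM with niraparib in PARP1 KO cells. These 2 sets did not overlap, with niraparib the lower, as for 8.69% of all genes in that direction, but the difference was -0.06 (95% interval -0.18 to 0.05), against -0.89 in WT cells. SQLE was at 120.4, 111 and 120.5 CPM with DMSO and at 130.5, 126 and 120.3 CPM with niraparib, with overlapping libraries. MVD was at 103, 102 and 97.4 CPM with DMSO and at 93.7, 98.8 and 106 CPM with niraparib, again overlapping.

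With olaparib in PARP1 KO cells, 0 members were called, beside 0.803% of all 22037 genes, and 5 members had an unadjusted P value below 0.05, beside 21.1% of all genes (edgeR). By adjusted P alone, 3 members differed from DMSO, while 8.29% of all genes did. SQLE was higher, at 149, 133 and 133 CPM, a change of 0.23 on the log2 scale (SE 0.06, adjusted P = 0.010, edgeR; 0.054 without PARP1 KO olaparib replicate 1 and 0.093 without PARP1 KO DMSO replicate 2). HMGCS1 was higher, at 209.5, 184 and 181 CPM, a change of 0.18 (log2, SE 0.05, adjusted P = 0.045, edgeR). This adjusted P value was above 0.05 in 5 of the 6 fits without 1 library, those without PARP1 KO olaparib replicate 1 (0.22) or 2 (0.071) and PARP1 KO DMSO replicate 1 (0.14), 2 (0.17) or 3 (0.0501), and with the replicate number as a block (0.069). ACAT2 was lower, at 63.6, 69.0 and 70.4 CPM against 77.0, 79.3 and 84.6 CPM, a change of -0.25 (log2, SE 0.06, adjusted P = 0.0083, edgeR; 0.074 without PARP1 KO DMSO replicate 3).

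Between the drugs in PARP1 KO cells, 0 members were called, beside 1.07% of all genes, and 4 members had an unadjusted P value below 0.05, beside 22.1% of all genes (edgeR). By adjusted P alone, 3 differed, beside 10% of all genes. HMGCS1 was lower with niraparib than with olaparib by -0.24 on the log2 scale (adjusted P = 0.0063, edgeR). ACAT2 was higher by 0.19 (adjusted P = 0.036, edgeR; above 0.05 in 4 of the 6 fits without 1 library, up to 0.15 without PARP1 KO olaparib replicate 1). MVK was higher by 0.21 (adjusted P = 0.024, edgeR; above 0.05 in 4 of the 6 fits without 1 library, up to 0.070 without PARP1 KO niraparib replicate 3). The intervals of the 9 differences lay between -0.38 and 0.33.

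The genotypes were then compared without drug. In DMSO 0 members were called between PARP1 KO and WT cells and 0 reached adjusted P under 0.05, beside 0.146% of 24675 genes called and 1.39% by adjusted P alone. At an unadjusted P value below 0.05 stood 1 member, beside 13.6% of all genes. It was ACAT2, higher in PARP1 KO by 0.16 (95% interval 0.04 to 0.27, adjusted P = 0.17, edgeR). Over the 9 members the 95% intervals lay between -0.27 and 0.27.

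Whether the response to niraparib differed between the lines was tested as an interaction over all 18 libraries, the log2 fold change in PARP1 KO minus that in WT, so that a positive value means a smaller fall in PARP1 KO. By the same rule 4 members, SQLE, HMGCS1, MVD and MVK, were called with a positive difference and 0 with a negative one, beside 3.68% of 24675 genes called positive and 8.88% in either direction. The differences were 0.95 for SQLE (SE 0.08, adjusted P = 9.1e-12, edgeR), 0.82 for HMGCS1, 0.68 for MVD and 0.63 for MVK. MVK was at 0.58, under 1.5-fold, without WT niraparib replicate 2. By adjusted P alone 8 members differed, beside 22.9% of all genes. FDFT1 (0.53), IDI1 (0.52) and FDPS (0.22) differed in the same direction by less than 1.5-fold, with adjusted P values of 1.5e-07, 0.0017 and 0.0070 (edgeR). ACAT2 differed the opposite way, by -0.22 (adjusted P = 0.041, edgeR), with 0.020 to 0.13 over the alternatives, above 0.05 with RLE size factors (0.055) and in 8 of the 12 fits without 1 library, and at its highest without PARP1 KO DMSO replicate 3. PMVK was at -0.09 (95% interval -0.23 to 0.05, adjusted P = 0.41, edgeR). These differences share the DMSO and niraparib libraries with the comparisons above and are no separate evidence for them.

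For olaparib the same test called 0 members, beside 0.657% of all genes, with 4 members at an unadjusted P value below 0.05, beside 15.7% of all genes (edgeR). SQLE was the 1 member with adjusted P under 0.05, as were 2.27% of all genes. The fold change of SQLE was higher in PARP1 KO by 0.29 (SE 0.08, adjusted P = 0.035, edgeR), with 0.0077 to 0.12 over the alternatives and 0.12 without PARP1 KO DMSO replicate 2. Of the 12 fits without 1 library each, 6 put it above 0.05. The intervals of the 9 members lay between -0.36 and 0.45.

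**Figure D4:**
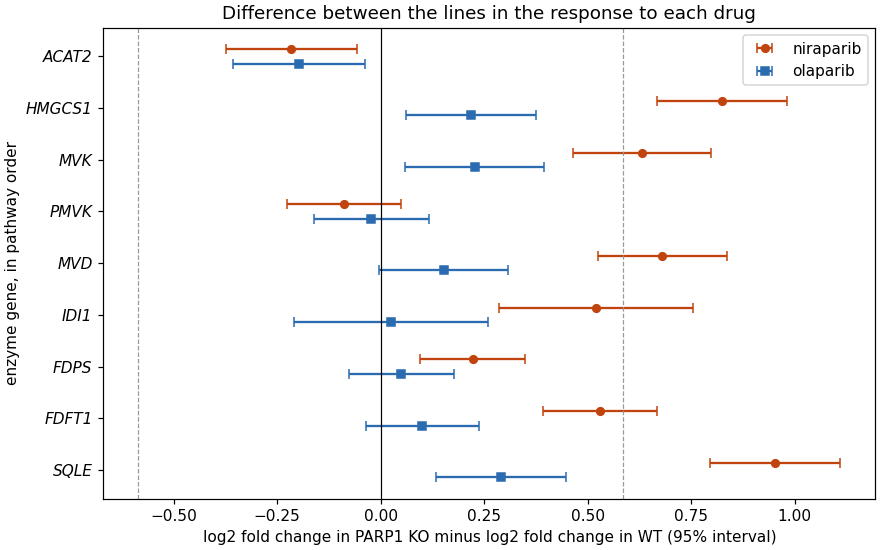
Difference between PARP1 KO and WT in the log2 fold change with niraparib (circles) or olaparib (squares) against DMSO, for each enzyme gene in pathway order, with 95% intervals and dashed lines at 1.5-fold. For niraparib 7 genes lie above 0, up to 0.95 for SQLE, and ACAT2 and PMVK lie below it.

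Other genes of the pathway were taken from lists by function, and their counts are to be read against the 5.72% of all genes called lower with niraparib in WT cells and the 13.8% called in either direction. Of 10 genes from lanosterol to cholesterol, 2 were called lower with niraparib in WT cells and 0 higher. By adjusted P alone 7 were lower and 1 higher, beside 18.1% and 19.9% of all genes. The higher one, named after its value was seen, was SC5D, a sterol desaturase (0.48, adjusted P = 5.2e-07, edgeR). The list's median log2 fold change was -0.29, against -0.57 for the members and -0.02 for all genes. MSMO1, a methylsterol oxidase of this later stretch, was at 88.6 ± 2.04 CPM with DMSO and at 38.3 ± 4.83 CPM with niraparib (SD, n = 3), a change of -1.21 (log2, SE 0.08, adjusted P = 3.2e-09, edgeR). Of 7 genes of the SREBP pathway, 1 was called lower, INSIG1, a sterol-responsive protein that holds the SREBP complex in the endoplasmic reticulum. This count of 1 in 7 is near the 13.8% of all genes called, and says nothing about the list, of which 3 genes were lower and 0 higher by adjusted P alone. INSIG1 itself changed by -1.74 (log2, SE 0.10, adjusted P = 8.1e-08, edgeR). Of 14 genes of the isoprenoid and prenylation branches, which use the products of FDPS and IDI1 for other ends, 0 were called, with 3 higher and 3 lower by adjusted P alone (9 at an unadjusted P value below 0.05, beside 44.8% of all genes, edgeR) and a median of 0.03. Named after their values were seen, the higher ones were RABGGTB (0.49), COQ2 (0.35) and RCE1 (0.18) and the lower ones were NUS1 (-0.52), GGPS1 (-0.23) and DHDDS (-0.19). These 6 of 14 stand beside 38% of all genes with adjusted P under 0.05. Of the 4 partners that catalyse the same or a neighbouring reaction in another compartment or tissue, 3 were tested and 0 called, with 1, ACAT1, the mitochondrial thiolase, lower by adjusted P alone (-0.22, named after its value was seen) and 1 at an unadjusted P value below 0.05 (edgeR). In PARP1 KO cells with niraparib 0 genes were called in each of these 4 lists (1 to 2 genes in each list had an unadjusted P value below 0.05, beside 9.14% of all genes, edgeR).

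Genes of cell division moved in the same samples. Of 10 proliferation genes, 7 were called lower and 1 higher with niraparib in WT cells, with a median log2 fold change of -1.30. The largest were the mitotic genes PLK1 (-2.46), CCNB1 (-2.19) and BUB1 (-1.89), with adjusted P values from 2.4e-15 to 1.4e-14 (edgeR). The 1 called higher, named after its value was seen, was the replication helicase gene MCM5 (0.63). In WT cells the list summed to 1451 to 1546 CPM with niraparib, 3101 to 3446 with DMSO and 2816 to 2842 with olaparib. In PARP1 KO cells the sum was 2797 to 3159 CPM with niraparib, 3200 to 3292 with DMSO and 2989 to 3525 with olaparib. With olaparib in WT cells 2 of the 10 were called, both lower, beside the 4.04% of all genes called in that comparison. They were CCNB1 (-0.70) and PLK1 (-0.63). The 7 luminal markers also had a lower sum with niraparib in WT cells, 8629 to 9591 CPM against 11320 to 12110 CPM with DMSO, and 1 of the 7 was called, beside 13.8% of all genes, GATA3 (-0.74, adjusted P = 6.0e-11, edgeR). With olaparib in WT cells the luminal sum was 9383 to 9733 CPM. The luminal sum in PARP1 KO cells was 12830 to 13470 CPM with DMSO, 11930 to 12180 with niraparib and 11070 to 11760 with olaparib. Of the 9 markers of other cell types, 5 were tested and 1, TP63, was called, beside the same 13.8%, and was higher (0.78, adjusted P = 0.0031, edgeR), and their sum was 116 to 156 CPM with niraparib and 104 to 131 CPM with DMSO, mostly COL1A1. CD3E, PECAM1, KRT5 and KRT14 had at least 1 library at 0 CPM in every group. The part of these shifts in the change of the enzymes was not tested. In RNA of a whole culture, fewer cells that express a gene and less of its RNA per cell cannot be told apart.

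The members were also compared with each other over the 18 libraries on the log2 CPM scale, as a description. Over all 36 pairs of the 9 members, Pearson's r ran from -0.639 to 0.971 with a median of 0.752, and the median was 0.18 after each group's mean was removed. Among the 7 members that lay lower with niraparib, a choice made on these same values, Pearson's r over the 21 pairs ran from 0.482 to 0.971 with a median of 0.886. These values include the low level in the 3 WT niraparib libraries, and were not recomputed without them. Without the group means, the median over these 21 pairs was 0.27, with the highest values for IDI1 with FDFT1 (0.856), IDI1 with SQLE (0.841) and FDFT1 with SQLE (0.776), and -0.226 for MVD with FDFT1. PMVK and ACAT2 correlated with each other at 0.699 over the 18 libraries and with HMGCS1 at -0.569 and -0.62. The mean of the 9 members relative to WT with DMSO was -0.42, -0.54 and -0.44 on the log2 scale in the WT niraparib libraries, and between -0.11 and 0.02 in the 15 others.

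Among 13479 other genes that averaged 1 CPM or more, those most like the mean standardized profile of the members over the 18 libraries were LGALS1 (Pearson's r = 0.983), PTPA (0.979), MORF4L1 (0.979), NIPSNAP1 (0.978) and NMU (0.977). A likeness above 0.9 was reached by 555 of these genes, 4.12%, so that such a profile, low in the WT niraparib libraries, was not particular to the members.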

How the data were processed

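For each of 18 polyA RNA libraries, the authors deposited unnormalized counts by gene. Reads were trimmed with Trimmomatic, mapped to GRCh38 with STAR and passed through Picard MarkDuplicates, and exon reads were counted with featureCounts 2.0.0 on Ensembl release 96, reverse strand, primary alignments. Reads that fell on several same-strand genes stayed uncounted. The members share no exon bases with such genes, and 11 named pseudogene copies of IDI1 and FDPS reached at most 17 counts. Whether duplicates were removed is not settled by the sources used here, and labels and paper differ on RNA input, medium and extraction kit.

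Genes summing to over 10 counts were fitted with edgeR 4.0.16 in R 4.3.3 (TMM, robust quasi-likelihood F test, Benjamini-Hochberg over all genes): 9 libraries for comparisons within a genotype, 18 for the genotypes and interactions. Standard errors were taken from the fold change and F. CPM use TMM-scaled totals over the 18 libraries. With 3 libraries against 3, an exact two-sided permutation test cannot go below P = 0.1, so statements rest on the fit across genes. Replicate pairs differed by more than sampling noise. Alternatives were RLE size factors, filterByExpr or no filter, DESeq2 1.42.0, a replicate block, all 18 libraries in a fit, no fold limit, a likeness floor of 5 CPM, and each library left out.

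Named were the members, PARP1, up to 3 genes of each list called with niraparib in WT, the 5 genes most like the members, and the cell type markers. MCM5, ACAT1, SC5D and 6 genes of the isoprenoid branches are outside this rule and were named after their values were seen. By the rule, 1 more gene was to be named and is not reported here. The members and lists were chosen with earlier results of these data known.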

Additional observations from a re-analysis of the deposited data

Results flagged for a closer look

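The change with niraparib against DMSO differed between PARP1 KO and WT cells for 8 of the 9 enzymes, by the interaction test of edgeR with adjustment over all genes. As PARP1 KO minus WT on the log2 scale, the difference was 0.95 for SQLE (adjusted P = 9.1e-12), 0.82 for HMGCS1 (adjusted P = 2.2e-10) and 0.68 for MVD (adjusted P = 1.4e-08). It was 0.63 for MVK (adjusted P = 2.3e-07), 0.53 for FDFT1 (adjusted P = 1.5e-07), 0.52 for IDI1 (adjusted P = 0.0017) and 0.22 for FDPS (adjusted P = 0.0070). For ACAT2 it was -0.22 (adjusted P = 0.041), with adjusted P values on both sides of 0.05 over the alternatives. These differences rest on the treatment label of the PARP1 KO niraparib libraries, where 3 of 22037 genes were called against DMSO. Of all genes, 22.9% had an adjusted P value below 0.05 in this test.

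The change with olaparib differed between the lines for SQLE, by 0.29 (adjusted P = 0.035, edgeR). This value was above 0.05 in 6 of the 12 fits without 1 library each, up to 0.12, and 2.27% of all genes had an adjusted P value below 0.05 in that test.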

How the results depend on the processing

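The number of members called was the same under RLE size factors, filterByExpr, no filter, DESeq2, the replicate block and all 18 libraries in the fit, and within 1.5 times of it with any 1 library left out. For PARP1 KO against WT in DMSO the block, set within genotype, does not estimate the same difference, so it is no check there. With no fold limit it was 8 in place of 4 with niraparib in WT, between the drugs in WT and for the niraparib interaction, 1 in place of 0 with olaparib in WT and for the olaparib interaction, and 3 in place of 0 with olaparib and between the drugs in PARP1 KO. That limit therefore sets how many members count as changed.

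Of 1053 values of single members, 1030 kept their direction and their side of the call, 4 lost it, 5 gained it and 14 changed sign. The losses and gains, at the limit of 1.5-fold, came in fits that left out 1 library. The sign changes came in such fits too, in 9 results whose values lay near 0. Their ranges were -0.064 to 0.034 for MVD, -0.099 to 0.015 for IDI1 and -0.0062 to 0.033 for FDPS with niraparib in PARP1 KO, -0.017 to 0.013 for FDPS and -0.078 to 0.010 for FDFT1 with olaparib in PARP1 KO, and -0.068 to 0.031 for HMGCS1 with olaparib in WT. For PARP1 KO against WT in DMSO they were -0.024 to 0.015 for PMVK and -0.028 to 0.029 for FDFT1, and for the olaparib interaction -0.091 to 0.079 for IDI1.

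The replicate numbers did not pair the samples: over 18 pairs of libraries with the same number within a genotype, the correlation of deviations from group means had a median of -0.083 and passed 0.1 in 5. Between libraries with different numbers within a genotype it ran from -0.587 to 0.626, and a factor shared by such libraries was not tested. With the replicate number as a block, 4 members were called with niraparib in WT, as without it, and the adjusted P values of ACAT2 there (0.054) and of HMGCS1 with olaparib in PARP1 KO (0.069) moved above 0.05. With 5 CPM as the floor, the first 5 genes most like the members were the same 5. Each group holds 3 libraries, and the effect of depth was not tested.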
